A study of Danio rerio with 63 samples.

Results

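The libraries labelled OB (olfactory bulbs) from adult female zebrafish were compared between cyp19a1b mutants and WT fish. All female OB columns were used, which gave 10 of the 63 libraries of the series: 4 pools of mutant females (12 fish) and 6 pools of WT females (18 fish). For each library the OB of 3 fish of 1 sex and genotype were pooled. WT fish were of the AB strain. Mutant fish came from 1 line made with TALENs, with a short deletion in the second exon of cyp19a1b that shifts the reading frame, so genotype and line cannot be told apart. The OB of 6 WT and 5 mutant male pools were fitted together with the female OB, so they share in the filter, the scaling and the estimate of spread. Otherwise these male pools, and the Tel (telencephalon) and hypothalamus of the same female pools, served to show where the female OB differed. Nothing in the labels says that a pool code (A1, A2, B1 and so on) marks a shared batch.

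Aromatase turns androgens into estrogens, and fish carry separate genes for a gonadal form (cyp19a1a) and a brain form (cyp19a1b, product AroB), the latter made chiefly by radial glia. Radial glia of adult fish line the ventricles, divide and give rise to new neurons. The olfactory bulbs hold mitral neurons, which use glutamate, and many GABA and dopamine interneurons. Axons of olfactory sensory neurons, whose cell bodies lie in the nasal epithelium, end there.

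Totals ran from 189762 to 541159 unique molecular identifiers (UMIs) in the WT female pools (median 275347). Mutant pools A1, A2, B1 and C1 held 31219, 207510, 62164 and 95988 UMIs (median 79076). Values are given as CPM (counts scaled to a common library total, with TMM factors) unless stated otherwise. A count of 3 was worth 5.7 to 15.8 CPM in WT pools and 16.8 to 81.2 CPM in mutant pools, so transcripts of low level could be followed in few mutant pools. Mutant pool A2 stood apart in 1 further respect: cytosolic ribosomal protein genes summed to 374400 CPM there, against 155900 to 171700 CPM in the other mutant pools and 156500 to 270700 CPM in WT pools.

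The label was checked first against defining markers. These values are CPM on the plain library total, so that the 3 regions share 1 scale. The markers of olfactory bulb neurons did not go one way in the WT female libraries labelled OB. Of 8 markers of projection (mitral) neurons, 7 had a lower median in OB than in the Tel. Among the 7, tbx21, slc17a7a and reln were near 0 in the Tel as well (medians 1.37, 0.72 and 4.18 CPM). Of 10 markers of bulb interneurons 6 were lower and 4 higher. Among those higher, calb2b was near 0 in both regions (medians 1.39 CPM in OB and 0.72 in the Tel). The pools of dlx5a overlapped (46.6 to 112.7 CPM in OB, 54.8 to 137.7 in the Tel). The mitral neuron gene tbx21 had no count in any of the 6 pools (0 to 5.48 CPM in the Tel). The range of eomesa was 0 to 8.34 CPM (464.3 to 731.3 in the Tel). That of th, the first enzyme of dopamine synthesis, was 0 to 5.56 CPM (0 to 8.22 in the Tel). As tbx21 and th were near 0 in both regions, they do not set the regions apart. The GABA-synthesizing enzyme gad1b had a median of 14.7 CPM, against 367.6 in Tel and 527 in hypothalamus libraries. The calcium-binding protein gene calb2a (calretinin) was listed here among the markers of bulb interneurons. Which cells of these libraries held its transcripts was not tested. It went the other way, with a median of 1937 CPM in OB, 49.8 in Tel and 183.9 in hypothalamus libraries. The transcription factor sp8a had medians of 59.4, 11.7 and 3.39 CPM in the same order, and dlx5a of 91.9, 75.9 and 17.3 CPM. The list of bulb GABA interneuron genes summed to a median of 2428 CPM in OB and 2403 CPM in Tel libraries. The level of calb2a alone in OB was close to that sum. The medians of gad2 and slc32a1 were 46.2 and 8.91 CPM in OB and 344 and 257.7 CPM in the Tel. The similar sums are thus no sign of similar levels across the list. The presynaptic gene snap25a had a median of 322.9 CPM in OB, 3703 in Tel and 7209 in hypothalamus libraries. A list of 31 mature neuron genes summed to a median of 2274, 15770 and 18730 CPM in OB, Tel and hypothalamus.

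Other markers were high under the same label. The epithelial genes cdh1 (E-cadherin), epcam and krt4 (a keratin) had WT female medians of 2630, 1791 and 1761 CPM in OB and at most 32.7 CPM in the Tel and hypothalamus. The cilia regulator foxj1a had a median of 367.8 CPM in OB, against 9.58 in Tel and 9.73 in hypothalamus libraries. The list of epithelium and cilia genes summed to a median of 28440, 945.4 and 1022 CPM in OB, Tel and hypothalamus. Olfactory sensory neuron genes were also above the other regions, with cnga2b at a median of 225.3 CPM in OB and 4.9 in the Tel. Macrophage genes summed to 19950 CPM in OB and 1905 in the Tel. The single gene apoeb had a median of 11110 CPM in OB (492.2 in the Tel). The macrophage markers mpeg1.1, c1qc and csf1ra had low medians of 75.3, 31.5 and 2.77 CPM in OB, against 10.6, 5.67 and 0.72 CPM in the Tel. In these libraries eomesa was thus near 0 and far below the Tel, while tbx21 and th were near 0 as in the Tel. The genes calb2a and sp8a were above the Tel, epithelial transcripts were abundant, and macrophage genes were above the Tel. They are called the libraries labelled OB, or OB for short. In bulk RNA, fewer cells of a type and less RNA per cell cannot be told apart.

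**Figure D1:**
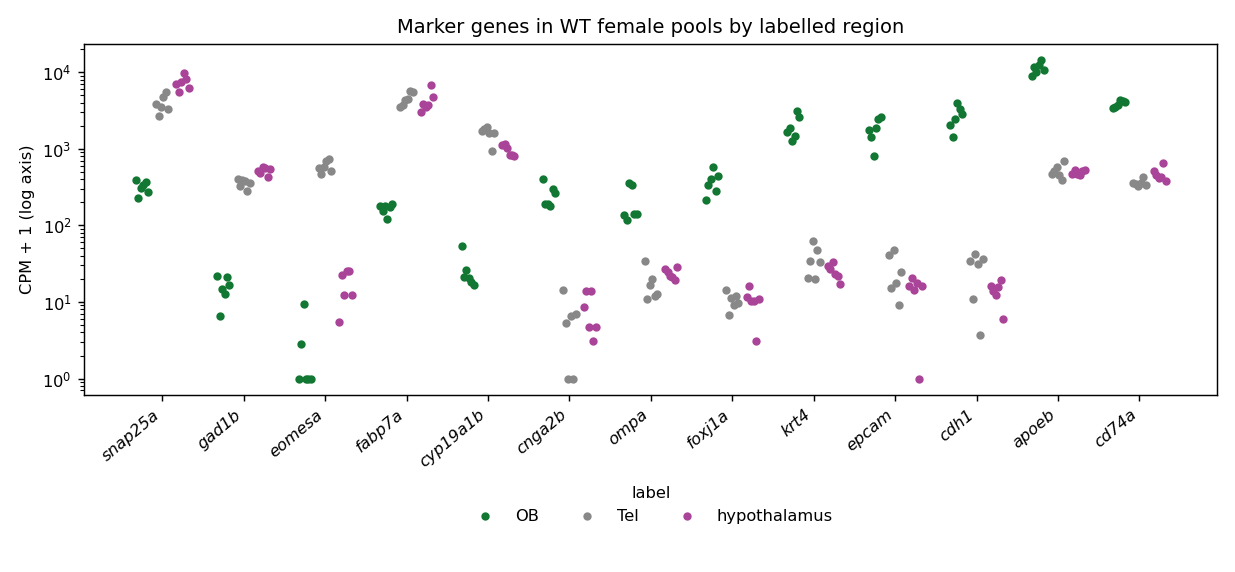
CPM + 1 on the plain library total (log axis) of 13 marker genes in WT females, 1 point per pool, 6 pools for each labelled region. The neuronal genes snap25a, gad1b and eomesa and the radial glial genes fabp7a and cyp19a1b were lower in the libraries labelled OB than in those of the Tel, while epithelial, olfactory sensory neuron and macrophage genes were higher.

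The targeted gene was measured at low level. In OB, cyp19a1b was at 27.1, 56.2, 0 and 18.6 CPM in mutant pools A1, A2, B1 and C1, and at 15.1 (lowest), 20.7 (median) and 52.7 CPM (highest) in the 6 WT pools. The groups overlapped (log2 fold change 0.36 ± 0.62, SE, adjusted p = 0.906). Its median was 1658 CPM in WT females of the Tel, on the plain library total. These 3′ counts do not report on the deletion, so cyp19a1b does not check the genotype labels. The gonadal aromatase gene cyp19a1a had no count in the 4 mutant pools and at most 3.44 CPM in WT pools.

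Of 4521 genes tested in OB, 116 passed the test in females (2.57% of tested genes, with adjusted p at or under 0.05 and at least a 1.5-fold difference). Of these, 105 were lower in mutants (2.32%) and 11 were higher (0.243%). At an unadjusted p of 0.05, 358 genes were lower (7.92%) and 201 higher (4.45%). The median log2 fold change was -2.03 over the 105 lower genes (range -4.63 to -0.99) and 0.01 over all tested genes, a centre that the scaling itself sets. For 94 of the 105 genes every mutant pool was below every WT pool, which was so for 3.69% of tested genes. The number of calls rested in part on single pools: it was 48 without mutant pool A2, 77 without B1 and 44 without the pools of lowest total, A1 and B1.

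The 12 lower genes with the largest changes and no overlap between pools come first, beginning with genes of the actin and microtubule skeleton. The transcript of actn4, an actinin that links actin filaments into bundles, was at 270.6, 44.9, 175 and 148.7 CPM in mutant pools A1, A2, B1 and C1. In WT pools it was at 1618, 2694 and 4123 CPM (lowest, median, highest), a fall of 19.9-fold (log2 -4.31 ± 0.72, adjusted p = 0.000879). The choice of the 12 genes required each mutant pool to be below the lowest WT pool, and for actn4 the margin was wide. The gene agtpbp1, which encodes an enzyme that trims glutamates from tubulin, was at 54.1, 5.62, 72.9 and 37.2 CPM in the mutant pools and at 321.4, 537.7 and 743.8 CPM in WT pools (log2 -3.96 ± 0.77, adjusted p = 0.00296). The cofilin gene cfl1, whose product severs actin filaments, was not among the 12 but had the smallest p of the called actin genes: 1596, 1404, 1269 and 1152 CPM in mutant pools against 6498, 8878 and 15760 CPM in WT pools (log2 -2.82 ± 0.41, adjusted p = 0.00019).

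Genes of signalling and transport followed. The calcium/calmodulin-dependent kinase subunit camk2d2 was at 216.4, 44.9, 204.2 and 83.6 CPM in mutant pools and at 1344, 2174 and 3318 CPM in WT pools (log2 -4.27 ± 0.71, adjusted p = 0.000879). The nuclear import receptor tnpo2 was at 54.1, 11.2, 72.9 and 37.2 CPM in mutant pools and at 431.7, 605.3 and 1005 CPM in WT pools (log2 -4.17 ± 0.78, adjusted p = 0.00215). In both genes mutant pool A2, the deepest mutant library, was the lowest of the 10 pools. A pair of Wnt pathway genes was among the 12: the receptor ryk was at 81.2, 11.2, 58.3 and 18.6 CPM in mutant pools against 184.5, 263.3 and 436.9 CPM in WT pools (log2 -3.26 ± 0.64, adjusted p = 0.00312). The transcriptional repressor tcf7l1b was at 81.2, 39.3, 0 and 9.29 CPM against 135, 209.6 and 283.1 CPM (log2 -2.91 ± 0.57, adjusted p = 0.00298). The secreted Wnt inhibitor sfrp5, outside the 12, also fell, from 251, 302.1 and 471.3 CPM in WT pools to between 14.6 and 83.6 CPM in mutant pools.

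The remaining genes of the 12 had varied roles. The transcript of stoml2, a protein of the inner mitochondrial membrane, had 1 count in the 4 mutant pools together and 130 counts in the 6 WT pools, a level 27.5-fold lower with a 95% interval of 4.84 to 1090 that covers counting error only. Its fitted change was -4.63 ± 0.83 on the log2 scale (adjusted p = 0.0015). The heat shock transcription factor hsf2 was at 135.3, 67.4, 145.8 and 232.3 CPM in mutant pools and at 475.1, 1282 and 3292 CPM in WT pools (adjusted p = 0.000879). WT pools thus differed among themselves by several fold. None reached down to the mutant range, which the choice of the 12 genes required. The tetraspanin tspan3a was at 270.6, 230.3, 145.8 and 334.5 CPM against 1537, 2234 and 3478 CPM (log2 -3.27 ± 0.48, adjusted p = 0.000203). The acute phase protein gene crp4, the ubiquitin ligase gene kcmf1 and zgc:56304, which RefSeq lists as the stress granule gene g3bp2b, also fell (log2 -3.53, -3.23 and -3.21). In kcmf1, mutant pool C1 was at 83.6 CPM while the other mutant pools were between 0 and 5.62 CPM.

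**Figure D2:**
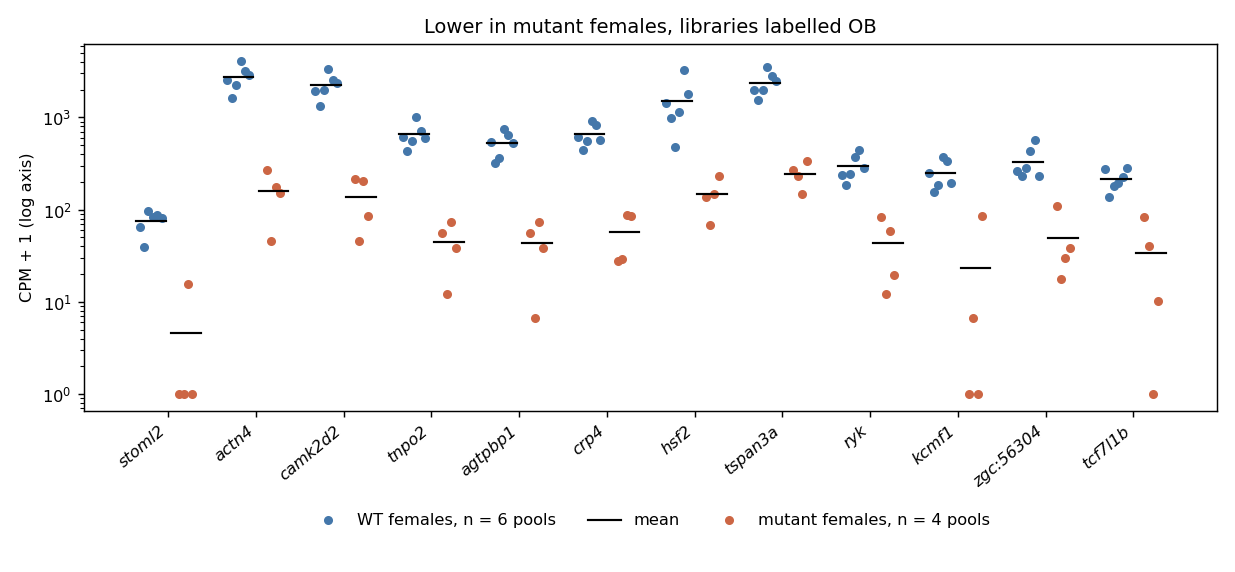
CPM + 1 (log axis) of the 12 lower genes with the largest changes in the libraries labelled OB, 1 point per pool, with the group mean as a bar. The 4 mutant pools lay below all 6 WT pools for each gene, which the choice of the genes required.

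The functions of the lower genes were described with lists of genes for 48 cell types and processes, 46 of which had a tested member. Of the 105 lower genes, 53 were in a list, as were 1554 of all 4521 tested genes. The lists were chosen with earlier results of these data known, which can by itself raise the shares of calls within them. Genes of RNA handling were the largest group by number, in the list with the most tested members. In the list of pre-mRNA splicing and RNA binding, 10 of 150 tested genes fell (6.67%, against 2.32% of tested genes) and 0 rose, with a list median of 0.01. The splicing factor srsf7a was at 162.3, 168.5, 131.2 and 269.5 CPM in mutant pools and at 701.7, 1037 and 1221 CPM in WT pools (log2 -2.43 ± 0.34, adjusted p = 0.000126). The paraspeckle protein gene nono fell by 2.49 on the log2 scale. The RNA-binding gene msi1b (musashi), known as a marker of neural progenitors, was at 216.4, 134.8, 102.1 and 148.7 CPM against 632.9, 816.4 and 1197 CPM (log2 -2.55 ± 0.45, adjusted p = 0.00135). The list of translation factors had 4 of 62 genes lower (6.45%, against the same 2.32%), namely eif1b, eif4a1a, eif4e1c and eif5a. Their changes ran from -2.41 (eif1b) to -1.23 (eif5a). Of 83 cytosolic and 53 mitochondrial ribosomal protein genes, none passed the test, with 1 and 2 lower and 2 and 1 higher at an unadjusted p of 0.05.

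Genes of protein turnover and of the secretory route follow. In ubiquitin and SUMO conjugation, 7 of 112 genes fell (6.25%, against 2.32% of tested genes). They included the conjugating enzymes ube2d2 (log2 -1.79) and ube2w (log2 -1.89) and the membrane-bound ligase march8 (log2 -2.19). Of 50 proteasome subunits none passed (3 lower and 2 higher at an unadjusted p of 0.05). In the secretory pathway 4 of 97 genes fell (4.12%, near the 2.32% of all tested genes). The gene sec61a1, which encodes the pore through which new proteins enter the endoplasmic reticulum, was at 595.2, 269.6, 568.7 and 288 CPM against 1305, 2416 and 4095 CPM (log2 -2.62 ± 0.49, adjusted p = 0.00215). The others were derl1, of the export of misfolded proteins, acbd3, of the Golgi, and arl1, a small GTPase of the Golgi. The list of Ras-type GTPases had 3 of 81 genes lower (3.7%, also near that share), namely arl1, already counted in the secretory list, cdc42 and kras, and the mutant and WT pools of kras overlapped.

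In the nucleus, 4 of 93 chromatin genes fell (4.3%, near the 2.32% of all tested genes): the lamin gene lmnb2 (log2 -2.05), the insulator protein gene ctcf (log2 -1.95), hmgb1a (log2 -1.25) and hcfc1a (log2 -1.15, pools overlapping). The calls of hmgb1a and hcfc1a were lost in 14 of 22 and 13 of 21 alternative settings, which include leaving out single pools. In the actin list 3 of 57 genes or 5.26% fell (cfl1, actn4 and the myosin phosphatase subunit ppp1r12a), and in the microtubule list 2 of 60 or 3.33%, near the same share (agtpbp1 and camsap1b, which binds microtubule minus ends). Protein phosphatase subunits were looked at as a family only after the values had been seen. Of 33 tested, 6 were lower (18.2%): ppp1caa, ppp1cab, ppp1r12a, ppp2r1ba, ppp3ca and ppp6c, with a median log2 fold change of -0.05 over the family.

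For each list of this paragraph the share to compare with is the 2.32% of all tested genes that were lower. In lipid metabolism, the acyl-CoA synthetase gene acsl1b (log2 -1.64) and the ceramide synthase gene cers3b (log2 -2.12) fell among 24 tested genes of their list (8.33%). The gene dhcr7, for the last step of cholesterol synthesis, was at 0, 22.5, 29.2 and 9.29 CPM in mutant pools and at 68.5, 114 and 154.8 CPM in WT pools (log2 -2.63 ± 0.58, adjusted p = 0.00878). It was 1 of 5 tested genes of that pathway. Of 82 nuclear oxidative phosphorylation genes, none passed the test (4 lower and 0 higher at an unadjusted p of 0.05), and of 37 genes of the TCA cycle and glycolysis 1 did, the citrate synthase gene cs (log2 -1.18). The stress gene ddit4, an inhibitor of mTOR, was 1 of 30 genes of apoptosis and autophagy (log2 -2.26), and ahsa1b, which encodes a co-chaperone of Hsp90, fell with hsf2 among 72 heat shock and chaperone genes (log2 -1.71). The growth arrest gene gadd45ba was the only call among 20 immediate early genes (log2 -1.32). No member of the lists of steroid-making enzymes (0 of 10 tested), nuclear receptors (0 of 4) or xenobiotic and glutathione enzymes (0 of 74) passed. In these lists 0, 0 and 6 genes were lower and 0, 0 and 3 higher at an unadjusted p of 0.05, and DESeq2 called 0, 0 and 1.

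**Figure D3:**
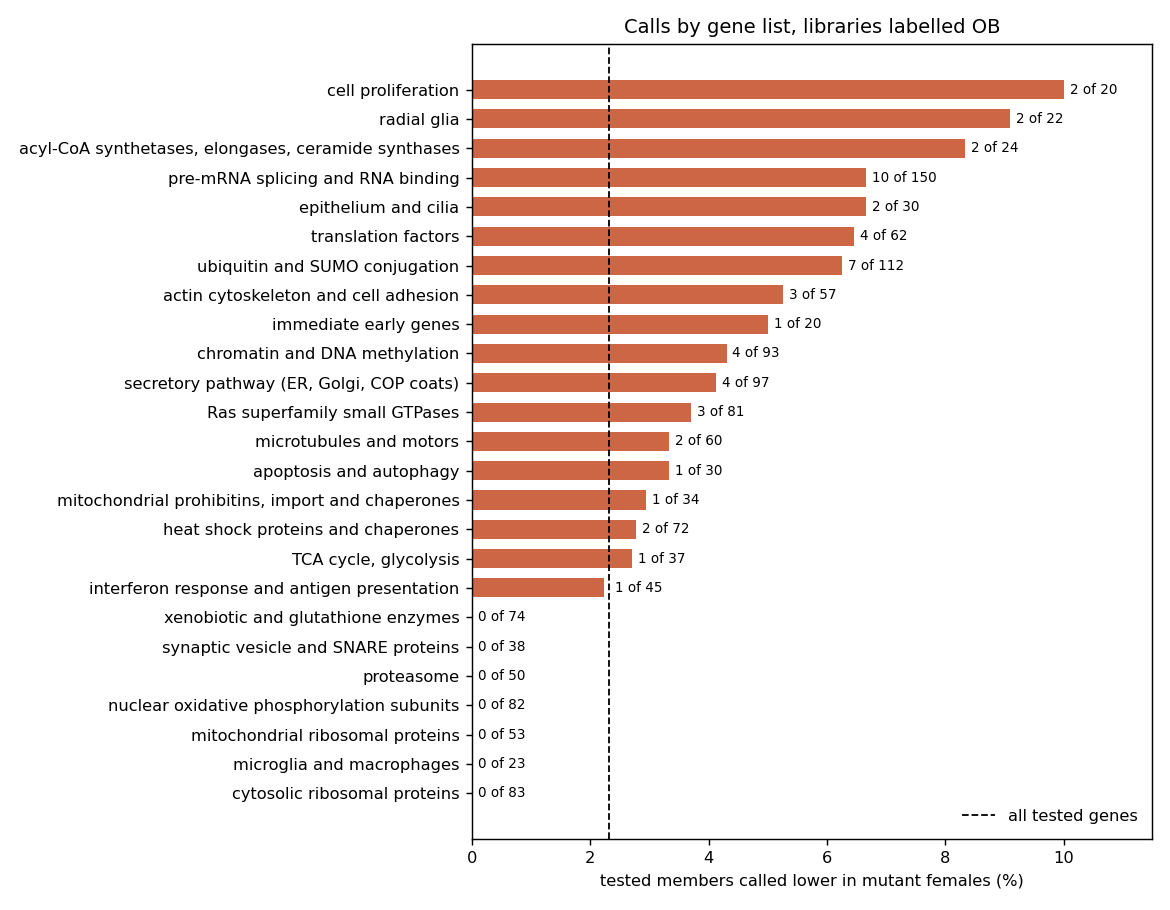
Share of tested members called lower in mutant females (%), for the lists with 20 or more tested genes, with the number called of the number tested beside each bar. The dashed line is the share over all tested genes, 2.32%. The highest shares rested on 2 calls each: cell proliferation (2 of 20), radial glia (2 of 22) and acyl-CoA and ceramide enzymes (2 of 24). Lists of RNA handling, ubiquitin conjugation and translation factors also lay above the line, and ribosomal, proteasome and oxidative phosphorylation genes had no call.

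The summed level of each list was also compared between pools. The summed CPM of 7 lists was lower in every mutant pool than in every WT pool: splicing and RNA binding (18510 to 21050 CPM in mutants, 24850 to 28520 in WT), actin, ubiquitin, the secretory pathway, chromatin, acyl-CoA and ceramide enzymes, and meninges and connective tissue. The actin list gave the widest gap, with 19290 to 22410 CPM in mutant pools and 30030 to 38970 CPM in WT pools. Taking out the called genes lowers the gap by construction, so the remaining sums are a description and no test. The remaining actin genes summed to 17560 to 20890 CPM in mutants and 17440 to 22170 CPM in WT, and those of splicing to 16170 to 18950 and 18300 to 21020 CPM. For chromatin the ranges were 12280 to 14410 and 13680 to 15150 CPM, and for meninges 1813 to 2648 and 2474 to 5466 CPM, overlapping near their edges. No list had a summed level higher in every mutant pool.

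For cell types, edgeR called no gene in the neuronal lists that come first, against 2.57% of all tested genes. With so few tested genes per list, the absence of calls cannot show that a cell type was unchanged. With edgeR, none of 16 mature neuron genes and none of 14 newborn neuron genes tested was called (1 and 2 lower, 0 and 1 higher at an unadjusted p of 0.05), and DESeq2 called 0 and 1. The early neuronal gene elavl3 was at 81.2, 56.2, 14.6 and 9.29 CPM in mutant pools and at 8.17, 50.5 and 83.7 CPM in WT pools, so that the groups overlapped fully. In the list of bulb GABA interneurons 6 genes were tested, none was called and 2 were higher at an unadjusted p of 0.05. No dopamine gene and no GABA or glycine receptor gene had enough counts to be tested. Of 11 olfactory sensory neuron genes and 14 odorant receptors none was called (1 lower and 1 higher in each list at an unadjusted p of 0.05), and the marker ompb was at 54.1, 28.1, 43.8 and 37.2 CPM in mutant pools and at 11.9, 22.3 and 42.2 CPM in WT pools.

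The 6 defining markers th, gad1b, slc17a6a, gfap, eomesa and tbx21 had too few counts for the model and were compared with a two-sided exact permutation test over the 10 pools, whose smallest possible p is 0.00476. In gad1b, the 4 mutant pools held 7 counts in all and the 6 WT pools 25 (adjusted over 6 genes, exact permutation p = 0.64). The glutamate transporter slc17a6a and the glial filament gene gfap had 0 counts in mutants and 11 and 9 in WT (exact permutation p = 0.0333 and 0.0381, adjusted p = 0.114 for both). Mutant pools were shallower (median 79076 UMIs, against 275347 in WT pools), and the permutation takes no account of this. No fall can be read from counts of 0 at that depth. The counts of th (4 in WT, 0 in mutants) and tbx21 (0 and 0) could show no difference at this depth. In eomesa (4 and 5 counts), 3 counts were in mutant pool A1, at 96.1 CPM on the plain library total. WT pools ran from 0 to 8.34 CPM. The groups overlapped (exact permutation p = 0.329, adjusted p = 0.494).

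In radial glia, 2 of 22 tested genes were called lower (9.09%, against 2.32% of all tested genes). They were glula and msi1b, the latter already counted under RNA binding. The list's median was 0.06. Radial glial genes were low in these libraries. On the plain library total, WT female medians in OB and Tel were 174.1 and 4348 CPM for fabp7a and 23.6 and 1235 CPM for slc1a2b. Those of glula were 11270 and 15950 CPM. Whether the 2 falls came from radial glia was not tested. The glutamine synthetase gene glula was at 2570, 791.9, 3004 and 5268 CPM in mutant pools and at 2880, 11460 and 17400 CPM in WT pools (log2 -1.94 ± 0.54, adjusted p = 0.0496), so 2 mutant pools reached above the lowest WT pool. The radial glial gene fabp7a was at 168.5 to 189.6 CPM in mutant pools and 126.7 to 190 CPM in WT pools, and it did not pass (log2 0.11 ± 0.24). For proliferation, rfc5 of the clamp loader and the phosphatase gene cdc25b, which drives entry into mitosis, fell among 20 tested genes (log2 -1.46 and -2.47). That was 10% of the list, against the same 2.32%. With 2 calls per list, both shares rest on few genes. The replication clamp pcna was at 135.3, 129.2, 58.3 and 232.3 CPM in mutant pools and at 124.7, 144.7 and 215.2 CPM in WT pools, with no difference beyond the spread (log2 -0.12 ± 0.30, adjusted p = 0.939).

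Epithelium and cilia had 2 of 30 tested genes lower (6.67%, against 2.32% of all tested genes), both of cell junctions. The claudin cldnb was at 324.7, 376.3, 539.6 and 687.6 CPM in mutant pools and at 1535, 2916 and 4944 CPM in WT pools (log2 -2.69 ± 0.40, adjusted p = 0.000277). E-cadherin (cdh1) was at 487, 320.1, 685.4 and 362.4 CPM against 1474, 2674 and 4172 CPM (log2 -2.59 ± 0.45, adjusted p = 0.00133). The median log2 fold change of the list was -0.07, and without the called genes it summed to 18640 to 25500 CPM in mutant pools and 21090 to 27910 CPM in WT pools. On the plain library total, krt4 had a median of 1645 CPM in mutant and 1761 CPM in WT pools, and foxj1a of 594.8 and 367.8 CPM.

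Meninges and connective tissue had 1 call among 11 tested genes (9.09%, against 2.32% of all tested genes), the collagen gene col1a2. Its level was 892.8, 544.8, 845.8 and 873.4 CPM in mutant pools and 1124, 1815 and 3197 CPM in WT pools (log2 -1.33 ± 0.33, adjusted p = 0.024). Of the 11 genes, 6 were lower at an unadjusted p of 0.05, and the list's median was -0.74. The list summed to 2706 to 3522 CPM in mutant pools and 3783 to 8664 CPM in WT pools. Of 5 endothelium and pericyte genes 1 passed (20%, against the same 2.32%), the endothelin receptor ednraa (log2 -2.46). In microglia and macrophages 1 of 23 genes rose, apoc1 (4.35%, against 0.243% of all tested genes). At an unadjusted p of 0.05, 4 were higher and 2 lower. The list summed to 23340 to 31570 CPM in mutant pools and 17910 to 25390 CPM in WT pools. Without apoc1, its only called member, the sums were nearly the same, 22910 to 31410 and 17890 to 25350 CPM. Both pairs of ranges overlapped. On the plain library total, the macrophage gene apoeb alone had medians of 17930 CPM in mutant and 11110 CPM in WT pools. Other macrophage markers were far lower and went both ways. Medians of mpeg1.1, c1qb and c1qc were 84.2, 31.6 and 53.3 CPM in mutant pools, against 75.3, 12.3 and 31.5 CPM in WT pools. Those of c1qa and csf1ra were 8.04 and 0 CPM, against 15.6 and 2.77 CPM.

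The 11 higher genes changed less and were of lower level. The apolipoprotein gene apoc1 was at 189.4, 426.8, 160.4 and 158 CPM in mutant pools and at 7.55, 34.3 and 130.7 CPM in WT pools (log2 2.13 ± 0.55, 4.38-fold, adjusted p = 0.0341). Its highest value was in mutant pool A2. The uncharacterized gene zgc:113263 was at 54.1, 61.8, 72.9 and 37.2 CPM against 3.78, 11.9 and 24.5 CPM (log2 1.92 ± 0.49, adjusted p = 0.0314). The membrane-bending protein gene pacsin2 was at 81.2, 78.6, 87.5 and 37.2 CPM against 5.27, 21.6 and 30.4 CPM (log2 1.66 ± 0.42, adjusted p = 0.0282).

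In 8 of the 11 genes every mutant pool was above every WT pool, which was so for 1.11% of tested genes. Besides these, the higher genes with no overlap were the muscle actin actc1b (log2 1.31), the DNA repair enzyme parp2 (log2 1.25), the endocytic scaffold itsn2b (log2 1.18), the guanylate kinase guk1a (log2 1.14) and zfp36l1a (log2 0.71), whose product binds AU-rich elements of mRNAs. The RNA-binding gene zfp36l1a had the narrowest values, 729.1 to 870.5 CPM in mutant pools and 395.6 to 551.2 CPM in WT pools. Pools overlapped in capn2l, slc40a1 (the iron exporter ferroportin) and nrsn1. Of 5 tested skeletal muscle genes, actc1b was the 1 called (20%, against 0.243% of all tested genes called higher). At an unadjusted p of 0.05, 2 were higher and 1 lower. All 11 higher calls were lost without mutant pool A1, the shallowest library with 31219 UMIs, and 1 was left without A2, so they rest on single pools. There were 5 without mutant B1 or WT C1, 6 without WT A1, B2 or C2, 7 without WT A2 and 17 without mutant C1.

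**Figure D4:**
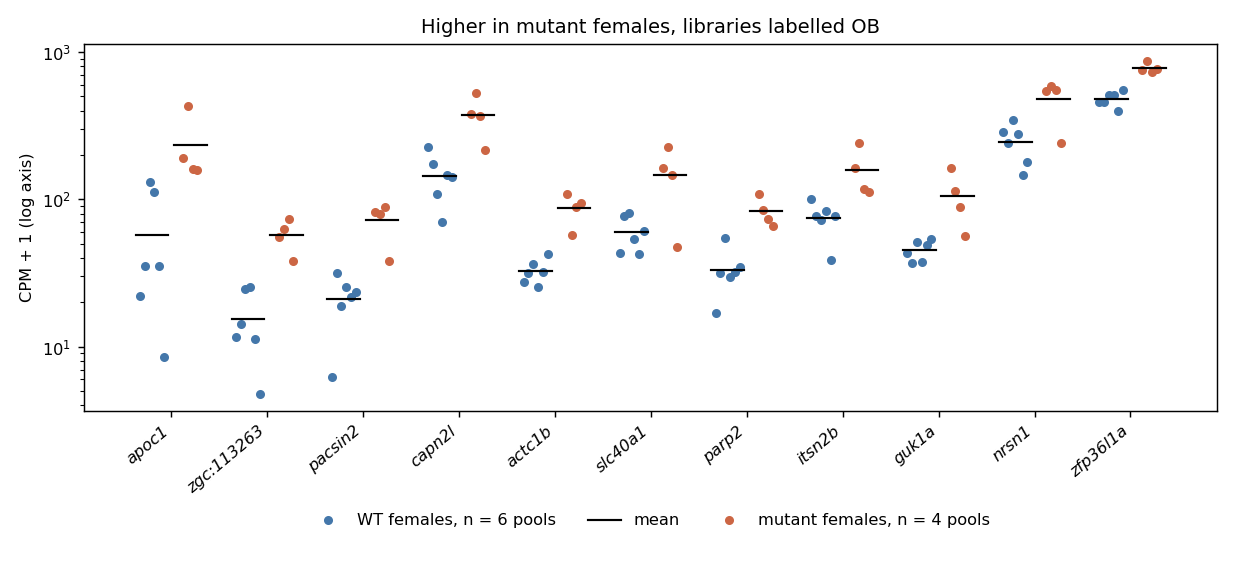
CPM + 1 (log axis) of the 11 genes called higher in mutant females in the libraries labelled OB, 1 point per pool, with the group mean as a bar. Mutant and WT pools did not overlap in 8 genes and overlapped in capn2l, slc40a1 and nrsn1.

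The lower genes were then followed pool by pool. They took 6.96 to 12.7% of all UMIs in WT female pools and 3.49, 1.54, 2.73 and 2.9% in mutant pools A1, A2, B1 and C1. The lowest share was in A2, whose total lay within the range of the WT pools and whose ribosomal protein genes had the highest sum. Whether depth or that sum bears on the share was not tested. All 105 genes were below every WT female pool in A2, and 98, 101 and 103 were so in A1, B1 and C1, against 37.4, 23.2, 29.7 and 23.8% of all tested genes in A1, A2, B1 and C1. These counts describe the genes as they were chosen and are no test of them.

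In the libraries of males, which the choice of these genes did not use as a contrast, mutant pools differed among themselves. The median log2 ratio of the 105 genes to the WT female mean was 0.11, 0.02 and -0.14 in mutant male pools A1, B1 and B2, and -1.07 and -1.66 in pools C1 and C2. WT male pools lay between -0.44 and 0.18. In C1 and C2, 66 and 89 of the 105 genes (62.9 and 84.8%) were below all 6 WT male pools, against 21.9 and 21% of all tested genes. In A1 and B1, 8 and 7 were (7.62 and 6.67%), against 18.2 and 14.2%. The gene cfl1 gives an example: it was at 10080, 7234 and 7201 CPM in mutant male pools A1, B1 and B2 and at 2550 and 1371 CPM in C1 and C2. The labels set these pools apart by nothing but their code.

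Between mutant and WT males as groups, 1 of 4521 genes passed the test (0.0221%, and 433 or 9.58% at an unadjusted p of 0.05), and none of the 105 genes lower in females did. Their median log2 fold change in males was -0.19. Of the 105, 77 were below 0 in males, a larger share than the 50.2% of all tested genes. The difference between the sexes was tested as an interaction, which 8 genes passed (0.177% of tested genes, and 434 or 9.6% at an unadjusted p of 0.05), all with the more negative change in females. They were stoml2, rps6ka1 (a ribosomal S6 kinase), msi1b, srsf7a, sfrp5, zfand5b, zgc:56304 and ppp6c (the catalytic subunit of protein phosphatase 6).

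The zinc finger gene zfand5b had the smallest adjusted p in females: it was at 216.4, 95.5, 116.7 and 130.1 CPM in mutant females and 475.4, 688 and 1038 CPM in WT females (log2 -2.51 ± 0.29, adjusted p = 1.77e-05). In males its change was -0.47 (interaction adjusted p = 0.0179). In ppp6c, mutant females were at 81.2, 129.2, 116.7 and 111.5 CPM and WT females at 305.9, 367.6 and 441.3 CPM (log2 -1.68 ± 0.25), while the change in males was -0.07 (interaction adjusted p = 0.0226). None of the 8 interactions passed without male mutant pool A1, nor without B1, nor without female mutant pool A2 or B1, so this count depends on single pools. The number of interactions was 51 without male mutant pool C1, 88 without C2 and 29 without WT male pool C1. It was 1 without WT female pool C1, 2 without WT female B2, WT male B2 or WT male C2, and 5 without WT male A1, A2 or B1.

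The same genes were also low in the other regions of mutant females. These libraries are separate but, by the fish numbers in the study's methods, come from the same pools of fish, so they are no independent fish. Of the 105 genes lower in OB, 65 were also called lower in the Tel (61.9% of the OB list and 60.7% of the 107 genes of the Tel, which were 2.41% of those tested there) and 87 in the hypothalamus (82.9% of the OB list and 43.9% of 198, which were 3.06%). Of all genes tested both in OB and in the other region, 3.04% were called lower in the Tel and 4.78% in the hypothalamus. The median log2 fold change of the OB genes was -1.96 in Tel and -2.04 in hypothalamus libraries, and 64 genes were called lower in all 3 regions. The marker sums of the 3 regions differed widely, as described above, and actn4 gives an example of the falls: its log2 fold change was -4.31 in OB, -4.31 in Tel and -4.55 in hypothalamus libraries.

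In male mutants the medians of the same genes in the Tel were 0.33, 0.28, -0.75, -1.88 and -1.46 in pools A1, B1, B2, C1 and C2. In the hypothalamus they were 0.37, 0.22, -1.14, -1.67 and -1.08. Pools A1 and B1 were thus near or above the WT female level in all 3 regions, C1 and C2 were below every WT pool in all 3 regions, and B2 was below every WT pool in the Tel and hypothalamus but not in OB.

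**Figure D5:**
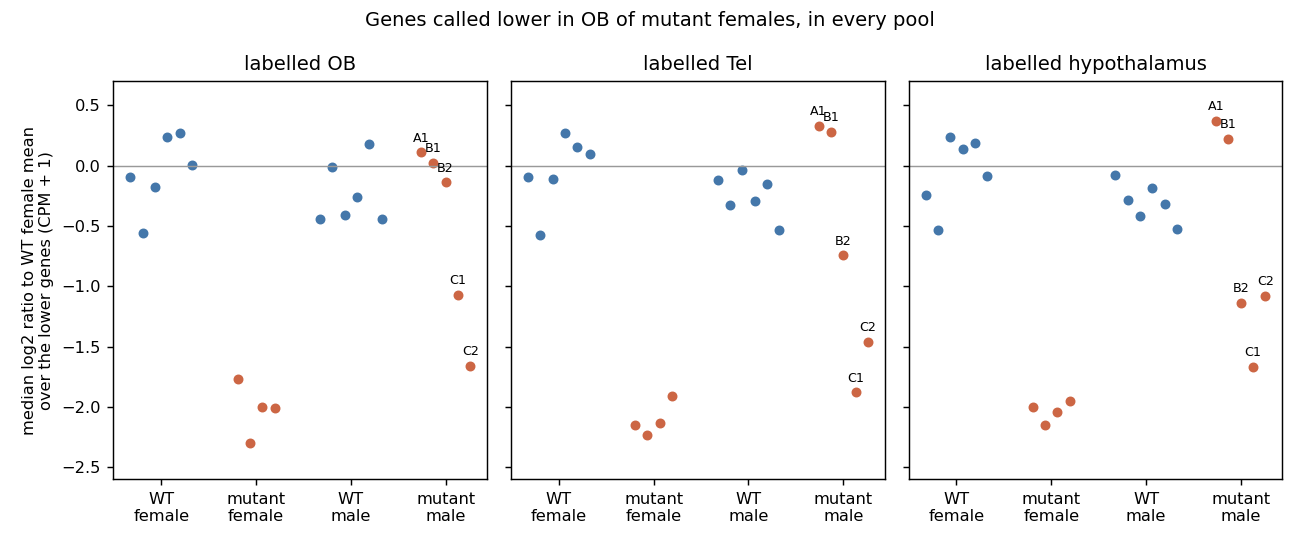
Median log2 ratio to the WT female mean of the same region, over the 105 genes called lower in OB of mutant females (CPM + 1), 1 point per pool, with the pool codes of mutant males. Mutant female pools lay between -2.3 and -1.77 in OB. Mutant male pools C1 and C2 were below all WT pools in the 3 regions, and A1 and B1 were not.

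The higher genes did not show this pattern. Of the 11, 6 were tested in the Tel and edgeR called none of them there (0.0451% of genes tested in the Tel were called higher), and in the hypothalamus only the neuronal vesicle gene nrsn1 of 9 tested was called higher, against 0.495% of tested genes (log2 0.72, adjusted p = 0.03).

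The test of whether the OB change differed from the mean change of the Tel and hypothalamus was passed by 5 of 5791 genes (0.0863%, and 369 or 6.37% at an unadjusted p of 0.05), 2 of them with the more negative change in OB (0.0345%). Apolipoprotein apoc1 rose in OB (log2 2.13) and changed by 0.06 in Tel and 0.15 in hypothalamus libraries, where it was not called. The neuronal membrane glycoprotein gene gpm6bb showed the reverse: its change was -0.10 in OB, where mutant and WT pools overlapped at 27.1 to 106.7 and 45 to 106.7 CPM, while it fell by 2.34 in the Tel and by 2.44 in the hypothalamus on the log2 scale. The fall of camk2d2 was larger in OB (log2 -4.27) than in the Tel (log2 -3.07) and hypothalamus (log2 -2.72). The acyl-CoA synthetase acsl4a was at -0.61 in OB (not called) and at 0.69 and 0.67 in the other regions.

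The growth factor bdnf was the fifth. In OB it was at 324.7, 264, 145.8 and 148.7 CPM in mutant females and at 61.9, 106.1 and 122.6 CPM in WT females, so the pools did not overlap, but the change of 1.09 ± 0.32 on the log2 scale missed the threshold (adjusted p = 0.0712). Its changes in the Tel (-0.72) and hypothalamus (-0.58) were of opposite sign and not called. The sixth gene by p, zgc:101785, missed the threshold (adjusted p = 0.0589). The number of genes that passed was 1 without the pool term in the model, and 0 without mutant pool A2 or C1. It was 3 without mutant A1, WT A2 or WT B2, and 8 without WT B1.

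Genes next to cyp19a1b on its chromosome were looked at last. Of the 20 tested genes nearest to it by RefSeq gene order, 10 on each side, 0 were called in OB of mutant females by edgeR's test, against 2.57% of all tested genes, with 1 lower and 0 higher at an unadjusted p of 0.05. The nearest in either direction were tmem258 (log2 -0.03) and ppib (log2 -0.42).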

How the data were processed

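RNA was measured by 3′ BRB-seq. Per the labels and the study's methods, the authors aligned reads to the UCSC danRer11 transcriptome, left out reads with several matches and deposited raw counts of distinct UMIs for 15418 genes in 63 libraries (BWA 0.7.4.4 in the submitters' processing notes). Each library was 1 region of 3 pooled fish. The labels do not say how pools of the same code are related, so p-values measure the spread between pools. Counts were used as deposited. The 21 OB libraries (4 groups of sex and genotype) were fitted together with edgeR 4.0.16 in R 4.3.3 (quasi-likelihood F test, TMM scaling, filterByExpr, Benjamini-Hochberg adjustment). Calls needed an adjusted p at or under 0.05 and at least a 1.5-fold difference. The interaction with region was fitted over 30 libraries of females, blocked by pool. For this, the same genotype and code were taken to mark the same fish in each region, which the labels do not state. CPM values use the TMM-scaled total unless the plain total is named. The 3-count floor and intervals cover counting error only. limma 3.58.1 and DESeq2 1.42.0 served as alternatives, along with other scaling, filters, thinning and leaving out each pool.

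Genes were named by a fixed rule: both aromatase genes; the 12 lower genes with the largest changes and all higher genes whose pools did not overlap; up to 4 called genes per list by p; a set of cell type markers; all genes called in the interaction with sex; and the 6 smallest p in that with region. The genes capn2l, slc40a1, nrsn1, the protein phosphatase subunits and the neighbours of cyp19a1b were chosen after values were seen. The comparison, lists and named genes were chosen with earlier results of these data known. The model was also run on simulated counts with changes set in mutant females only, and no result here rests on that run. Both aromatase genes were kept whatever the filter. Gene order came from RefSeq, whose assembly differs from that of the files, so no coordinates are given. The marker genes gad1a, mbpa and adcy3b were not analysed here. A gene that the rule names is not reported here.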

Additional observations from a re-analysis of the deposited data

Results flagged for a closer look

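In groups of 4 or 6 pools, a pool far from the rest was searched for by Dixon's criterion. The search covered 72 genes, 29 list sums, total UMIs and the share of UMIs in the lower genes (206 groups in all). For independent, normally distributed values chance gives about 1 in 20, or 10 groups, and 15 were found. As some items overlap and low counts are not normally distributed, the 10 is only a rough guide. Values are CPM.

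Mutant female A2 held several of them: apoc1 was at 426.8 (other mutant pools 158 to 189.4), col1a2 at 544.8 (845.8 to 892.8), ddit4 at 61.78 (241.6 to 277.1), and cytosolic ribosomal protein genes summed to 374400 (155900 to 171700). In mutant female C1, eif4a1a was at 288 (135.3 to 157.3), kcmf1 at 83.63 (0 to 5.616) and the secretory list at 11740 (10830 to 10980). In mutant female B1, stoml2 was at 14.58, which is 1 count, with the other pools at 0, so it meets the criterion by construction. In WT female B2, cfl1 was at 15760 (other WT pools 6498 to 9942), hmgb1a at 1279 (751.2 to 946.1) and the actin list at 38970 (30030 to 33010). In WT female C1, acbd3 was at 509.2 (254.8 to 337.5) and cdc42 at 1042 (601.2 to 751.9). WT female A2 had ctcf at 165.4 (269 to 331), and WT female A1 had cyp19a1b at 52.74 (15.1 to 26.72).

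The change in females minus that in males differed from 0 for 8 genes, on the log2 scale: msi1b (-2.583), ppp6c (-1.609), rps6ka1 (-2.716), sfrp5 (-2.265), srsf7a (-2.322), stoml2 (-4.689), zfand5b (-2.035) and zgc:56304 (-3.139). The change in OB minus the mean of the other regions differed from 0 for acsl4a (-1.436), apoc1 (1.948), bdnf (1.467), camk2d2 (-1.518) and gpm6bb (2.18).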

How the results depend on the processing

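Against 116 genes changed, 105 lower and 11 higher, leaving out 1 pool gave 48 to 113 changed, 47 to 106 lower and 0 to 17 higher. The 8 interactions with sex became 0 to 88, and the 5 with region 0 to 8. Without a filter on low counts, 199 genes changed, 189 were lower and 108 interactions with sex passed. With at least 10 counts in every library, 36 changed, 31 were lower, 5 higher and 15 interactions with sex passed. Thinned to 79076 UMIs, 40 changed, 38 were lower, 2 higher and 0 interactions with sex passed in edgeR (124 at an unadjusted p of 0.05). Without the 2 libraries of lowest total, 44 changed, 44 were lower, 0 higher and 2 interactions with sex passed. The interaction count was 77 with DESeq2, 5 with DESeq2 size factors and 5 on the library total. The interaction with region gave 1 gene with no replicate block and 9 with limma-voom.

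Same-code mutant and WT pools had correlated deviations of 0.0189 (A1), 0.193 (A2), -0.00112 (B1) and 0.214 (C1). Not every value was over 0.1, so the codes were not taken to pair the pools. For pools of different code the values ran from -0.249 (mutant A2 with WT C1) to 0.207 (mutant A2 with WT B1). Whether pools of the same letter share a factor was not tested. With the pool code as a replicate block, 139 genes changed (123 lower, 16 higher) and 15 interactions with sex passed. With the pool letter as a block, 147 changed (129 lower, 18 higher) and 22 interactions passed. DESeq2 called 152 genes, of which 107 were among the 116. With only the 10 female OB libraries in the fit, 134 genes changed (125 lower, 9 higher), of which 105 were among the 116. Of 65 named called genes, 18 were called in every setting that tested them. The calls of ahsa1b, hmgb1a, nrsn1 and zfp36l1a were each lost in 14 settings and that of hcfc1a in 13. None of the 65 changed sign in any setting. The cause of these differences was not tested. In the shallowest mutant pool, 3 counts are worth 81.2 CPM.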
